A study of Sus scrofa with 105 samples.

Results

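The miR-29 family is represented in the porcine count table by 4 mature miRNAs, ssc-miR-29a-3p, ssc-miR-29a-5p, ssc-miR-29b and ssc-miR-29c, of 457 mature miRNA names in all. The rule took every name of the family without use of a measured value. Only the choice among several entries of a name used one, since the entry with the highest total count was kept. Small RNA had been sequenced from formalin-fixed, paraffin-embedded brain of female piglets for work on diffuse traumatic brain injury in childhood. The 105 libraries came from 53 animals, told apart by the code in each library name, and 52 animals gave both the frontal lobe and the hippocampus together with the amygdala. The untreated injured group with a survival of 1 day had 10 libraries in each region. The injured group given cyclosporine A (CsA, a calcineurin inhibitor that suppresses immune responses) received 20 mg/kg per day intravenously, as a loading dose 6 hours after injury and an infusion over 24 hours, and survived 30 hours. It had 9 frontal libraries and 10 of the hippocampus and amygdala. The untreated injured group at 1 week (survival of 6 to 8 days) had 15 libraries in each region. The reference was a group of untreated sham or naive animals with a survival of 0 to 8 days, called sham here, with 18 libraries in each region. It mixes operated and naive animals and several survival times, and no injured group given the vehicle of CsA is among the samples.

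The mature miR-29a, miR-29b and miR-29c share their seed, the stretch near the 5′ end that pairs with messenger RNAs, so they can act on overlapping targets. Known targets include collagens and other extracellular matrix genes, the de novo DNA methyltransferases DNMT3A and DNMT3B and, in mouse neurons, BH3-only genes that promote cell death. In mouse brain the family rises as neurons mature, and in rodent cultures miR-29a has been described in astrocytes. The precursors lie in pairs. In the RefSeq gene table for Sscrofa11.1, MIR29B-1 is the immediate neighbour of MIR29A and MIR29B-2 the immediate neighbour of MIR29C. Mature miR-29b can therefore come from either pair, miR-29a only from the first and miR-29c only from the second. miR-29a-5p is the passenger strand of the miR-29a hairpin, which is usually discarded when the duplex is loaded.

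The library totals had a median of 7542892 counts and a range of 98996 to 13194782, and 3 libraries, all sham, held under 1000000. Totals moved with the groups. In the frontal lobe the median total was 10314190 at 1 day, 8669991 with CsA, 6957558 at 1 week and 4768190 in sham, and in the hippocampus and amygdala it was 9578728, 9563313, 7031130 and 5500973 in that order. Levels below are in CPM, counts scaled to a common library size with TMM factors. Differences are edgeR's log2 fold changes with their standard error (SE), and p-values are from its 2-sided quasi-likelihood test with Benjamini-Hochberg adjustment over all miRNAs tested, with a threshold of 0.05 (a miRNA below it is called). In bulk tissue a change in the number of cells of a type and a change in RNA per cell cannot be told apart.

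miR-29a-3p was the most abundant member, with a total of 1935071 counts over all libraries. It ranked between 35 and 40 among the detected miRNAs by mean level, depending on group and region. miR-29c held 801373 counts and ranked between 48 and 59, and miR-29b held 436993 counts and ranked between 65 and 70. The order miR-29a-3p, miR-29c, miR-29b was the same in all 8 group and region means. Together the family made up 0.330% ± 0.082 of the counts in frontal sham libraries (SD, n = 18). miR-29b was listed under both of its precursors, with totals of 436993 and 432539. Summed over the libraries these entries differed by 1.02% of the larger total, so they hold nearly the same reads and the share from each precursor cannot be read from them. Members that differ by few bases can share reads, so a single level is uncertain to that extent.

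miR-29a-5p was barely detected. It had 237 counts in all, a median of 1 count per library and at most 15, and 36 libraries had none. Against the summed counts of both strands it made up 0.0131% at 1 day (95% exact binomial interval 0.00922 to 0.0180), 0.00840% with CsA (0.00498 to 0.0133), 0.0156% at 1 week (0.0110 to 0.0215) and 0.0154% in sham (0.0104 to 0.0220) in the frontal lobe. In the hippocampus and amygdala these shares were 0.01001%, 0.0134%, 0.0121% and 0.01005% in the same order. The intervals cover counting error only, and those of the groups overlap. miR-29a-5p was removed by the filter on low counts, so 3 of the 4 members were tested across miRNAs. None of the 10 differences in its ratio to miR-29a-3p passed (permutation tests, lowest adjusted p = 0.336), and a difference between groups was not detectable at this depth.

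At 1 day miR-29a-3p was the member that rose, in both regions, and miR-29b and miR-29c did not pass. Frontal miR-29a-3p ran from 2390 CPM through a median of 2684 to 3191 at 1 day, against 1271, 2074 and 2999 in sham. All 10 of the 1 day libraries lay above the sham median and 3 lay above the highest sham library, so the groups overlapped. The level averaged 2772 ± 305 CPM at 1 day and 2034 ± 443 CPM in sham (SD, n = 10 and 18), a 1.35-fold rise (log2 0.43, SE 0.10, edgeR adjusted p = 0.000444). It was 1 of 3 tested members, where 48.1% of the 293 miRNAs tested were called in this comparison and 24.9% were called higher. Its fold change ranked 56 from the highest of the 293.

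Hippocampal and amygdalar miR-29a-3p ran from 2108 CPM through 2470.9 to 3507 at 1 day, against 1448, 1941 and 2852 in sham. Again all 10 libraries at 1 day lay above the sham median, and 2 lay above the highest sham library. The means were 2569 ± 424 and 1975 ± 448 CPM (SD, n = 10 and 18), a 1.32-fold rise (log2 0.40, SE 0.12, edgeR adjusted p = 0.00639). Of the 299 miRNAs tested there, 48.5% were called and 27.4% were called higher, so 1 of 3 members is not more than the background of this comparison. The difference between regions in this rise was small beside its error (log2 0.07, SE 0.13, adjusted p = 0.980 for the interaction in the paired edgeR fit).

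**Figure D1:**
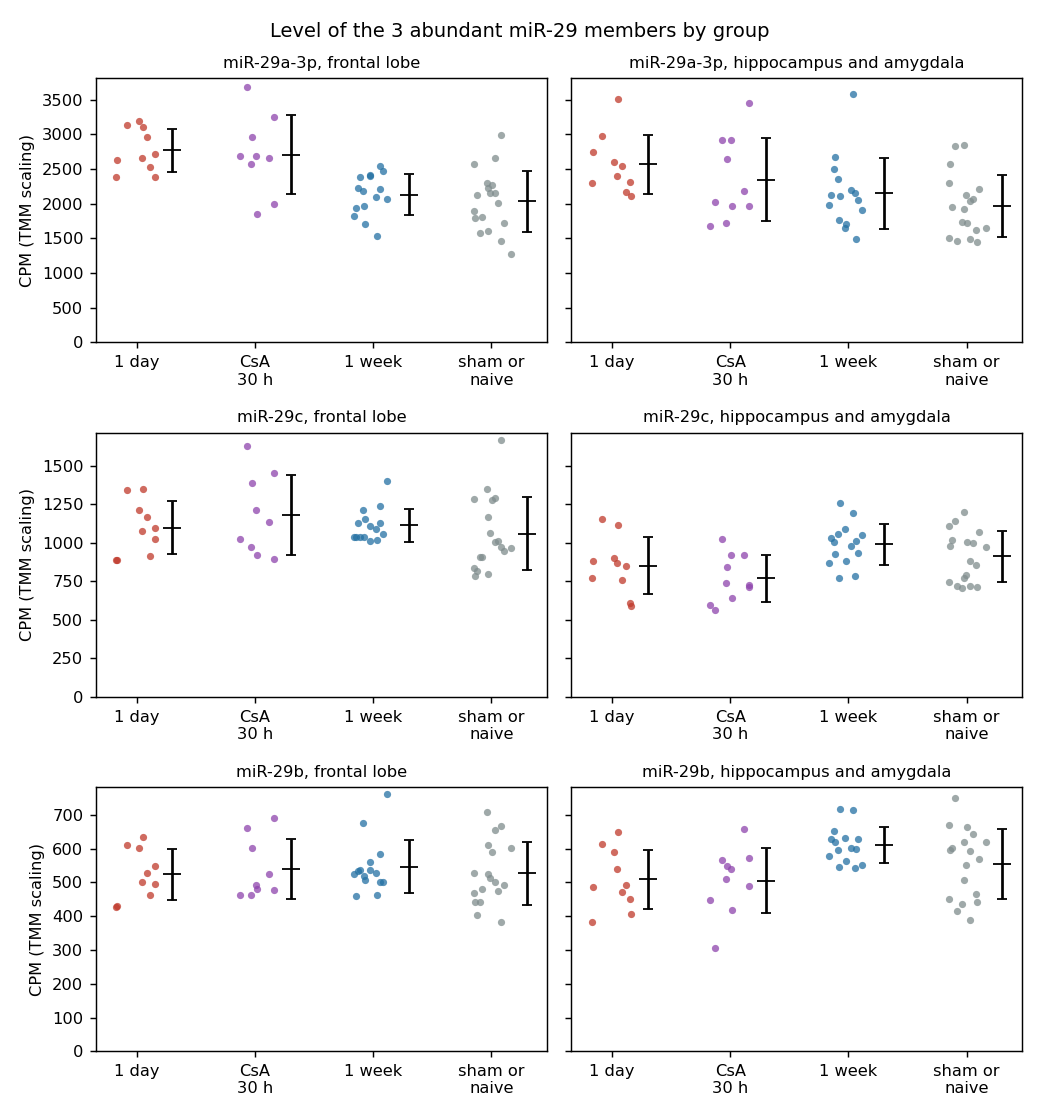
Level of miR-29a-3p, miR-29c and miR-29b in CPM (linear axes from 0) for each library, by group and region; the mark and bar beside each group are the mean and SD over libraries. miR-29a-3p averaged 2772 CPM at 1 day, 2708 with CsA, 2133 at 1 week and 2034 in sham in the frontal lobe, and the 1 day and sham libraries overlapped for every member in both regions.

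miR-29b and miR-29c gave other values at 1 day. Frontal miR-29b averaged 524 ± 74.3 CPM at 1 day and 527 ± 92.8 CPM in sham, a log2 difference of -0.02 (95% interval -0.20 to 0.15, adjusted p = 0.859). Frontal miR-29c averaged 1097 ± 172 and 1058 ± 236 CPM, a log2 difference of 0.04 (-0.16 to 0.24, adjusted p = 0.763). Both intervals exclude a rise as large as the 0.43 of miR-29a-3p. In the hippocampus and amygdala miR-29b averaged 509 ± 87.8 CPM at 1 day and 555 ± 103 CPM in sham (log2 -0.11, -0.29 to 0.08), and miR-29c 850 ± 185 and 912 ± 164 CPM (log2 -0.08, -0.29 to 0.12). The intervals were computed from the edgeR estimate and its SE. Neither passed there, with adjusted p = 0.356 for miR-29b and 0.509 for miR-29c.

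The unequal change was tested directly as the ratio of counts of a pair of members within each library, in which the scaling factor cancels. Within sham the log2 ratios and the log10 total had Pearson r of -0.27 (miR-29b) and -0.43 (miR-29c) in the frontal lobe and -0.14 and -0.19 in the other region (n = 18, permutation adjusted p from 0.103 to 0.565 over 22 relations). Spearman rho was -0.05, 0.04, -0.39 and -0.49 in the same order (permutation adjusted p = 0.863, 0.863, 0.125 and 0.0546). Without the 2 libraries farthest from the median total r was 0.15, 0.45, -0.32 and -0.56 in that order. None of the 4 relations passed, and that of miR-29c in the hippocampus and amygdala came nearest. The counts of miR-29b over those of miR-29a-3p in the frontal lobe averaged 0.189 ± 0.018 at 1 day and 0.267 ± 0.062 in sham (SD, n = 10 and 18). The 1 day libraries ran from 0.163 to 0.229 and the sham libraries from 0.189 to 0.473; all 10 at 1 day lay below the sham median of 0.254 and 7 lay below the lowest sham library. The highest sham ratio came from replicate 16, with a total under 1000000. The mean log2 ratio was 0.47 lower (-0.47, permutation test, 2-sided, adjusted p = 0.00012 over 30 ratio tests), and -0.42 without libraries under 1000000 (permutation adjusted p = 0.000129). In the other region the ratio averaged 0.199 ± 0.022 at 1 day and 0.288 ± 0.056 in sham, a log2 difference of -0.52 with the same adjusted p of 0.00012 by permutation.

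miR-29c fell relative to miR-29a-3p by a like amount. Its ratio averaged 0.395 ± 0.032 at 1 day and 0.527 ± 0.087 in sham in the frontal lobe (log2 -0.40, permutation adjusted p = 0.00012). In the other region it averaged 0.330 ± 0.043 and 0.471 ± 0.075 (log2 -0.51, permutation adjusted p = 0.00012). All 10 of the 1 day libraries lay below the sham median in each region, and 4 frontal libraries and 7 of the other region lay below the lowest sham library. The log2 ratio of miR-29c to miR-29b, the members that did not pass, differed by 0.07 in frontal libraries and 0.01 in those of the other region (permutation adjusted p = 0.468 and 0.934 over 63 ratio tests added after the data had been seen). As a share of the family, miR-29a-3p held 63.2% ± 1.9 at 1 day and 56.0% ± 4.0 in frontal sham libraries, and 65.5% ± 2.4 and 57.1% ± 4.1 in the other region.

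**Figure D2:**
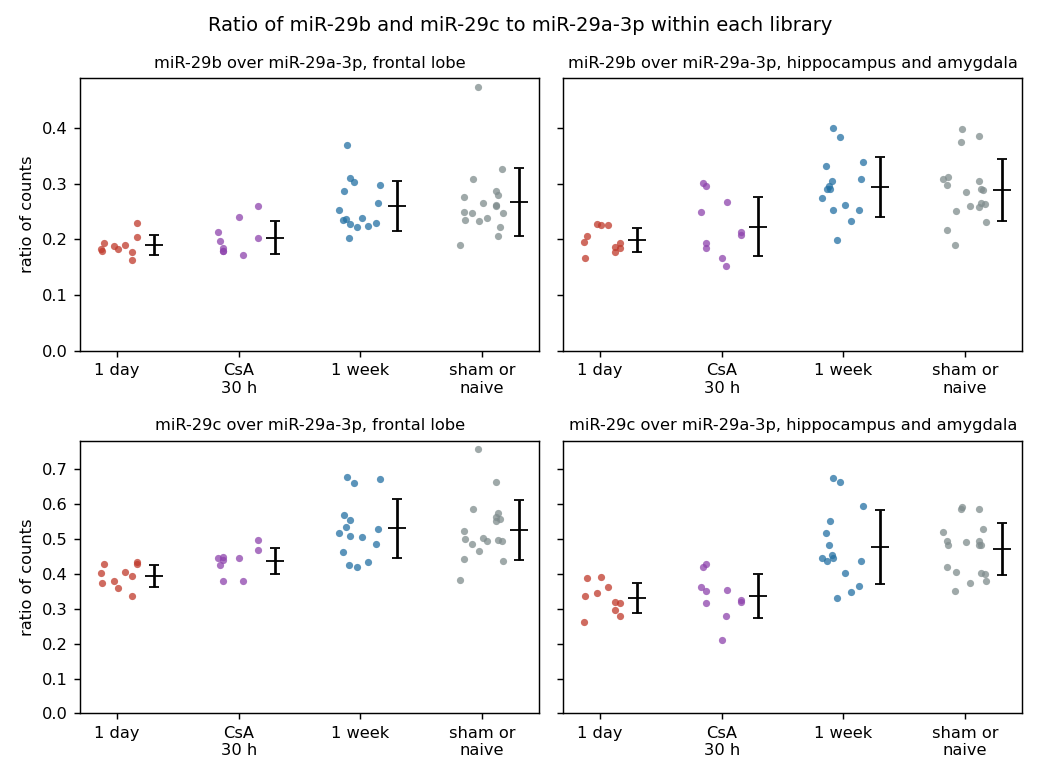
Ratio of the counts of miR-29b (top) and miR-29c (bottom) to those of miR-29a-3p in each library, by group and region, on linear axes from 0; the mark and bar beside each group are the mean and SD over libraries. At 1 day every library lay below the sham median in all 4 panels, and at 1 week the means (0.260 and 0.531 in the frontal lobe) stood close to those of sham (0.267 and 0.527).

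The digits and letters of the animal codes moved with these groups. All 1 day and CsA animals had codes that begin 11, 12 or 13, whereas sham codes begin 10 to 14 or 16. A letter follows in most codes. It is U in all 10 animals at 1 day and all 10 with CsA, whereas the sham animals with codes 11, 12 or 13 carry B, F, I or none, and the 6 sham animals with U have codes 14 or 16. No source used here says what the digits or letters mean. Within codes 11 to 13 the letter and the injury therefore cannot be told apart, and among animals with U neither can the digits and the injury. Among animals with codes beginning 11 (5 at 1 day, 6 sham), miR-29a-3p was higher at 1 day by log2 0.47 in the frontal lobe and 0.56 in the other region (edgeR adjusted p = 0.0264 and 0.0219). Among those with codes 12 or 13 (5 at 1 day, 5 sham) the differences were 0.38 and 0.10 (adjusted p = 0.193 and 0.803). In that subset 0 of 293 frontal miRNAs were called by edgeR and 62 had an unadjusted p under 0.05; 4 of 297 were called in the other region. The difference of the rise between these code groups was log2 0.41 in the hippocampus and amygdala (SE 0.21, adjusted p = 0.225) and 0.09 in the frontal lobe (adjusted p = 0.956). For this difference between code groups edgeR called 36 of 299 miRNAs in the hippocampus and amygdala and 0 of 291 in the frontal lobe. Among animals with the letter U (10 at 1 day, 6 sham), miR-29a-3p was higher at 1 day by log2 0.35 in the frontal lobe and 0.40 in the other region (edgeR adjusted p = 0.0064 and 0.0220). In that subset edgeR called 171 of 296 frontal miRNAs and 144 of 300 in the other region. With codes beginning 11 it called 94 of 290 and 114 of 299, so a call was common in these subsets too.

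The ratios were lower at 1 day within both code groups. With codes 12 or 13, miR-29c over miR-29a-3p was lower by log2 -0.35 in the frontal lobe and -0.37 in the other region, and all 5 libraries at 1 day lay below all 5 sham libraries in each region (exact permutation adjusted p = 0.0357 each, over 63 tests). With codes 11 the same ratio was lower by -0.38 (exact permutation adjusted p = 0.104) and -0.50 (0.0273). For miR-29b over miR-29a-3p the differences were -0.48 and -0.50 with codes 11 (exact permutation adjusted p = 0.0606 and 0.0273) and -0.41 and -0.32 with codes 12 or 13 (0.0357 and 0.0750). Among animals with the letter U all 10 libraries at 1 day lay below all 6 sham libraries for both ratios in both regions. The differences there were -0.52 and -0.70 for miR-29b and -0.41 and -0.64 for miR-29c (exact permutation adjusted p = 0.0005 each, over 16 tests among animals with U). With the log10 total as a covariate the rise of miR-29a-3p was log2 0.29 in the frontal lobe (edgeR adjusted p = 0.0334) and 0.25 in the other region, where it no longer passed (0.144). That covariate lowered the number of all miRNAs called from 141 to 54 of 293 and from 145 to 57 of 299. Within frontal sham libraries the level of miR-29a-3p and the log10 total had Pearson r = 0.56 and Spearman rho = 0.37 (n = 18, permutation adjusted p = 0.0298 and 0.199 over 14 relations). Without the 2 libraries farthest from the median total r was 0.19, so that relation rests on those libraries. In the hippocampus and amygdala r was 0.40 and rho 0.55 (permutation adjusted p = 0.152 and 0.0383), and r was 0.51 without the 2 farthest. Totals and injury cannot be told apart in this design.

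With CsA after injury, miR-29a-3p was also higher than in sham in the frontal lobe. It ran from 1854 CPM through a median of 2692 to 3688 with CsA, against 1271, 2074 and 2999 in sham. Of the 9 CsA libraries, 7 lay above the sham median and 2 above the highest sham library. The means were 2708 ± 569 and 2034 ± 443 CPM (SD, n = 9 and 18), a 1.31-fold rise (log2 0.39, SE 0.10, edgeR adjusted p = 0.00439), where 34.1% of the miRNAs tested were called and 14.3% were called higher. With the log10 total as a covariate edgeR called 22 of 293 miRNAs, and 100 without it. The call of miR-29a-3p was lost with that covariate (log2 0.26, edgeR adjusted p = 0.0762). It was also lost within codes 11 (0.34, adjusted p = 0.198) and within codes 12 or 13 (0.39, adjusted p = 0.292), where no miRNA was called by edgeR and 73 and 43 had an unadjusted p under 0.05.

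Hippocampal and amygdalar miR-29a-3p averaged 2348 ± 598 CPM with CsA and 1975 ± 448 CPM in sham (SD, n = 10 and 18), with log2 0.27 (SE 0.12, edgeR adjusted p = 0.104), and 20.1% of miRNAs were called there. miR-29c averaged 769 ± 153 CPM with CsA and 912 ± 164 CPM in sham, with log2 -0.22 (SE 0.11, adjusted p = 0.130), and 9 of 10 CsA libraries were not above the sham median. Neither passed with all libraries. miR-29a-3p passed without sham replicate 13 (adjusted p = 0.0493) and miR-29c without CsA replicate 5 (0.0458). miR-29b stood at log2 -0.11 there and at 0.01 in the frontal lobe.

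Both ratios were lower with CsA than in sham. miR-29b over miR-29a-3p averaged 0.203 ± 0.030 with CsA and 0.267 ± 0.062 in sham in the frontal lobe (log2 -0.38, exact permutation adjusted p = 0.00321, 8 of 9 below the sham median). In the other region it averaged 0.223 ± 0.053 and 0.288 ± 0.056 (log2 -0.38, permutation adjusted p = 0.0093, 8 of 10 below). miR-29c over miR-29a-3p averaged 0.437 ± 0.038 and 0.527 ± 0.087 in the frontal lobe (log2 -0.26, exact permutation adjusted p = 0.0093, 9 of 9 below) and 0.337 ± 0.064 and 0.471 ± 0.075 in the other region (log2 -0.49, permutation adjusted p = 0.000129, 10 of 10 below). The frontal miR-29c ratio no longer passed when medians replaced means (log2 -0.17, adjusted p = 0.120). Within codes 12 or 13 the 4 differences ran from -0.40 to -0.25 and within codes 11 from -0.45 to -0.17. Of these 8 differences, the ratio of miR-29c in the hippocampus and amygdala with codes 11 passed (log2 -0.45, exact permutation adjusted p = 0.0273). Among animals with the letter U all 4 differences passed, from -0.62 to -0.26 (exact permutation adjusted p = 0.00133 to 0.005).

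Set against untreated injury at 1 day, CsA gave no difference in level that passed. The log2 differences of the 3 members ran from -0.14 to 0.09, with 95% intervals between -0.40 and 0.32 in all. edgeR called 0 miRNAs in either region, 0% of those tested, while 5 frontal miRNAs and 71 of the other region had an unadjusted p under 0.05; DESeq2 called 0 in the frontal lobe and 13 in the other region, with no member among them, and limma voom called 0 in both. Survival also differed, 30 hours against 1 day. For miR-29a-3p the difference was -0.04 in the frontal lobe (-0.27 to 0.18) and -0.12 in the other region (-0.40 to 0.15). One ratio passed: miR-29c over miR-29a-3p averaged 0.437 with CsA and 0.395 at 1 day in the frontal lobe (log2 0.15, exact permutation adjusted p = 0.0464, 6 of 9 CsA libraries above the highest at 1 day). It passed in 5 of the 19 cases in which 1 library was left out (log2 0.12 to 0.17, exact permutation adjusted p = 0.0145 to 0.0944), and no longer passed when medians replaced means (log2 0.16, adjusted p = 0.200), within codes 11 (0.21, exact permutation adjusted p = 0.129) or within codes 12 or 13 (0.10, 0.468).

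**Figure D3:**
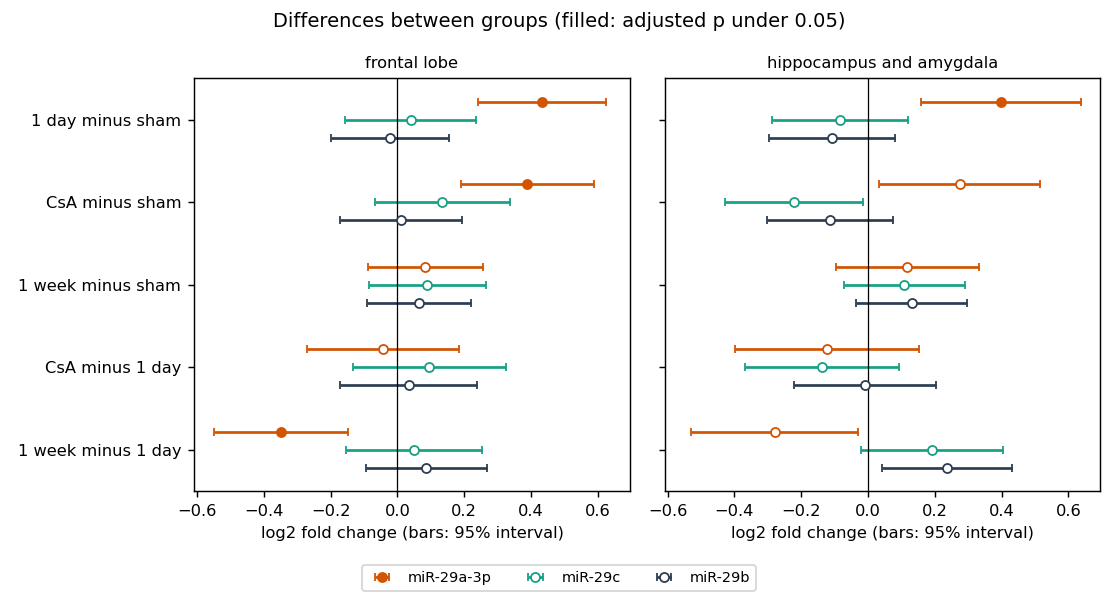
edgeR log2 fold changes of miR-29a-3p, miR-29c and miR-29b for 5 differences between groups, for the frontal lobe (left) and the hippocampus with the amygdala (right); bars are 95% intervals and filled points have an adjusted p under 0.05. miR-29a-3p stood at 0.43 and 0.40 for 1 day minus sham, and the points of miR-29b and miR-29c were open in every difference.

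At 1 week no member passed against sham, and the levels stood close to those of sham. Frontal miR-29a-3p averaged 2133 ± 296 CPM at 1 week and 2034 ± 443 CPM in sham (SD, n = 15 and 18; log2 0.08, 95% interval -0.09 to 0.26, edgeR adjusted p = 0.957). In the hippocampus and amygdala it averaged 2152 ± 509 and 1975 ± 448 CPM (log2 0.12, -0.10 to 0.33, adjusted p = 0.769). miR-29b and miR-29c stood between log2 0.06 and 0.13 in both regions, none past the threshold. The comparison called few miRNAs, 0 of 293 (0%) in the frontal lobe by edgeR (20 had an unadjusted p under 0.05, and DESeq2 called 1), and 1 of 299 (0.334%) in the other region. Within codes 14 to 17, where all 9 animals at 1 week and all 6 sham animals carry the letter U, edgeR called 66 of 279 frontal miRNAs and 23 of 280 in the other region. Within codes 10 or 11 it called 0 in both regions, with 23 at an unadjusted p under 0.05 in each. The difference of each member missed the threshold in both subsets. Neither ratio to miR-29a-3p passed in either region; the 4 log2 differences ran from -0.03 to 0.04, with permutation adjusted p from 0.855 to 0.969. Within codes 14 to 17 the mean of each ratio stood below that of sham. For miR-29b the differences were -0.15 in the frontal lobe and -0.17 in the other region, with 8 of 9 libraries below the sham median in each (exact permutation adjusted p = 0.129 and 0.221 over 63 tests). For miR-29c they were -0.05 (5 of 9, adjusted p = 0.548) and -0.21 (8 of 9, adjusted p = 0.110). Over the 16 tests among animals with U, which are the same libraries here, the value of -0.21 had an exact permutation adjusted p of 0.0472 and the other 3 did not pass. Within codes 10 or 11 the 4 differences ran from 0.01 to 0.06 and none passed (exact permutation adjusted p = 0.881 to 0.949).

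Between 1 week and 1 day the pattern at 1 day turned round. Frontal miR-29a-3p ran from 1533 CPM through 2190 to 2552 at 1 week, against 2390, 2684 and 3191 at 1 day. All 15 libraries at 1 week lay below the median at 1 day, and 11 lay below the lowest library at 1 day. It fell by 0.35 on the log2 scale (SE 0.10, edgeR adjusted p = 0.00695), where 38.9% of miRNAs were called and 16.4% were called lower. In the other region the log2 difference was -0.28 (SE 0.13, adjusted p = 0.0800), and 30.4% were called. It passed there without 1 week replicate 5 (the library with the highest level at 1 week, 3587 CPM) or replicate 7, with adjusted p down to 0.0247.

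miR-29b in the hippocampus and amygdala averaged 612 ± 53.8 CPM at 1 week and 509 ± 87.8 CPM at 1 day (SD, n = 15 and 10), and all 15 libraries at 1 week lay above the median at 1 day. The log2 difference of 0.24 (SE 0.10) did not pass (edgeR adjusted p = 0.0610), but it passed under other settings (0.0178 to 0.0479 for 6 of them) and without sham replicate 2, 1 day replicate 2 or 9, or 1 week replicate 12. miR-29c stood at 0.19 (adjusted p = 0.158) there. The ratios to miR-29a-3p were higher at 1 week than at 1 day in each case. miR-29b over miR-29a-3p averaged 0.260 ± 0.045 at 1 week and 0.189 ± 0.018 at 1 day in the frontal lobe (log2 0.45, permutation adjusted p = 0.000129). In the hippocampus and amygdala it averaged 0.294 ± 0.054 and 0.199 ± 0.022 (log2 0.55, permutation adjusted p = 0.00012). miR-29c over miR-29a-3p was higher by log2 0.42 and 0.51 (permutation adjusted p = 0.000225 and 0.000467). The comparisons of 1 day and of CsA with sham share the sham libraries, and those of 1 week and of CsA with 1 day share the 1 day libraries. Codes beginning 11 are the only ones held by both the 1 week and 1 day groups (4 and 5 animals), with no letter at 1 week and U at 1 day, and the 1 week against 1 day difference was not tested within them. Among animals with U (9 at 1 week, 10 at 1 day) the 4 ratio differences ran from 0.36 to 0.52, with every library at 1 week above the median at 1 day (exact permutation adjusted p = 0.000173 to 0.000346 over 16 tests).

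Between regions, miR-29c was the member that differed. In injured animals given CsA it averaged 1180 ± 259 CPM in the frontal lobe and 741 ± 131 CPM in the hippocampus and amygdala of the same 9 animals, and was higher in the frontal lobe of 8. The difference within an animal ran from -0.04 through a median of 0.68 to 1.45 on the log2 scale. With the animal as a block, the difference was log2 0.66 (SE 0.12, edgeR adjusted p = 2.78e-06), where 56.7% of the 307 miRNAs tested were called and 31.3% were called higher in the frontal lobe. At 1 day miR-29c averaged 1097 ± 172 CPM in the frontal lobe and 850 ± 185 CPM in the other region and was higher in the frontal lobe of 8 of 10 animals (log2 0.39, SE 0.11, adjusted p = 0.00318; 46.6% called, 24.1% higher). At 1 week it was higher in 12 of 15 animals and did not pass (log2 0.18, SE 0.09, adjusted p = 0.105; 43.3% called).

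In sham animals miR-29c averaged 1058 ± 236 CPM in the frontal lobe and 912 ± 164 CPM in the hippocampus and amygdala, with 13 of 18 animals higher in the frontal lobe (log2 0.20, SE 0.08, edgeR adjusted p = 0.0343; 48.5% called, 24.8% higher). This call was lost with other scaling factors, without the filter, with repeated entries kept, or without animals that had a library under 1000000 (adjusted p = 0.0679 to 0.115). miR-29a-3p and miR-29b passed in no group. miR-29a-3p with CsA had log2 0.25 (adjusted p = 0.0522), and miR-29b at 1 week had -0.17 (adjusted p = 0.0613), lower in the frontal lobe of 13 of 15 animals. The region difference of miR-29c was larger with CsA than in sham by log2 0.46 (SE 0.14, unadjusted p = 0.00206 from edgeR), which did not pass over the 307 miRNAs (adjusted p = 0.0702); edgeR called 0 (0%) in this interaction, with 75 at an unadjusted p under 0.05.

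The ratio of miR-29c to miR-29b, of which MIR29C and MIR29B-2 are neighbours, differed between regions in every group. It was higher in the frontal lobe in 10 of 10 animals at 1 day (mean log2 difference 0.34 ± 0.18, SD), 9 of 9 with CsA (0.54 ± 0.18), 15 of 15 at 1 week (0.35 ± 0.16) and 14 of 18 in sham (0.27 ± 0.24). Exact sign-flip permutation tests, 2-sided, gave adjusted p = 0.0246, 0.0273, 0.00385 and 0.00937 over the 63 added ratio tests. The ratio thus stood higher in the frontal lobe also at 1 week, where the level of miR-29c did not pass. The region difference of this ratio was larger with CsA than in sham by log2 0.26 (exact permutation adjusted p = 0.0365). With 1 animal left out at a time it passed in 16 of 27 cases (log2 0.22 to 0.29, exact permutation adjusted p = 0.0248 to 0.0833).

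**Figure D4:**
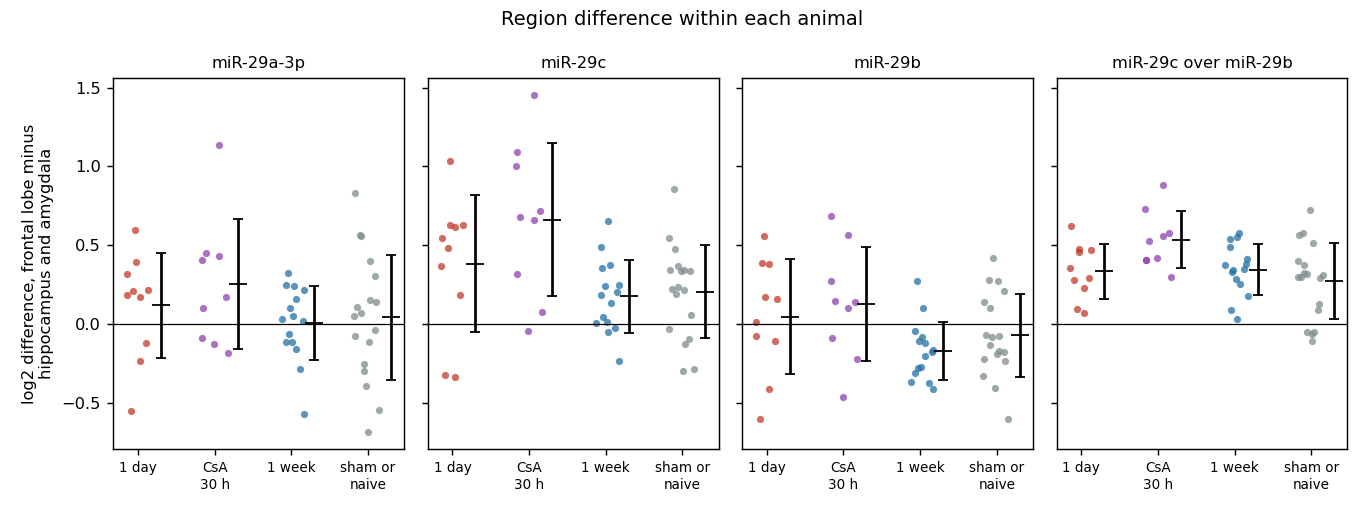
Difference of log2 CPM between the frontal lobe and the hippocampus with the amygdala within each animal for miR-29a-3p, miR-29c and miR-29b, and the same difference for the log2 ratio of miR-29c to miR-29b; each point is an animal, with the mean and SD beside each group. For miR-29c over miR-29b all animals at 1 day, with CsA and at 1 week lay above 0, and 14 of 18 sham animals did.

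The members varied together among animals of a group. Taken as deviations of log2 CPM from the group mean, miR-29b and miR-29c had r = 0.81 and rho = 0.80 over 52 frontal libraries, and r = 0.83 and rho = 0.87 over 53 libraries of the other region. miR-29a-3p followed miR-29c with r = 0.71 and 0.58 (rho 0.71 and 0.58) and miR-29b with r = 0.54 and 0.54 (rho 0.63 and 0.57). Permutation adjusted p over the 14 relations was at most 9.33e-05 for each of these 6, and r without the 2 farthest libraries was 0.52 or more. Within each of 3 ranges of the code start, miR-29b and miR-29c had r from 0.72 to 0.91 (permutation adjusted p up to 0.00443), in 6 of 6 subsets. That of miR-29a-3p with miR-29b in frontal libraries with codes 10 or 11 was 0.33 (permutation adjusted p = 0.152, n = 22). For libraries of the hippocampus and amygdala with codes 14 to 17 (n = 15), miR-29a-3p and miR-29b had r = 0.63 and rho = 0.45 (permutation adjusted p = 0.0165 and 0.113), and r was 0.15 without the 2 farthest libraries. miR-29a-3p and miR-29c had r = 0.66 there and 0.38 without the 2 farthest. Levels of a library share its total and scaling.

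Among 286 other miRNAs that passed the filter in both regions, miR-30b-5p was the one nearest to miR-29a-3p by the same measure, with a mean r of 0.81 over both regions. miR-99a-3p (0.75), miR-660 (0.72), miR-27a (0.68) and miR-27b-3p (0.68) followed. All 5 were also called higher at 1 day than in sham in both regions by edgeR, miR-30b-5p by log2 0.56 and 0.54 (adjusted p = 0.0164 and 0.00749). Since 48.1% and 48.5% of all miRNAs were called there, and 24.9% and 27.4% were called higher, a call is common. The nearest to miR-29b was miR-30e-3p (0.52) and the nearest to miR-29c was let-7f-5p (0.59), and neither passed at 1 day (log2 0.19 and -0.13 in the frontal lobe). These likenesses are given without a test.

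miRNAs of related reported roles were described as lists, by counts and medians only. Of 6 other miRNAs reported in astrocytes, 4 rose at 1 day in each region and 0 fell. Of all miRNAs tested, 48.1% and 48.5% were called there and 24.9% and 27.4% were called higher. The list's median log2 was 0.48 in the frontal lobe and 0.46 in the other region, beside 0.01 and 0.06 over all miRNAs tested. The called members were miR-23a (log2 0.42 and 0.37), miR-23b (0.53 and 0.60), miR-27a (0.83 and 0.76) and miR-27b-3p (0.63 and 0.55). miR-26a stood at 0.00 and 0.14 and miR-26b-5p at 0.06 and 0.17, and neither passed. With CsA, where 34.1% and 20.1% of all miRNAs were called, 1 of the 6 passed in each region, miR-27a, at 0.65 and 0.50 (edgeR adjusted p = 0.0199 and 0.0332). At 1 week none passed against sham.

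Of 6 tested miRNAs with reported roles in fibrosis and matrix, the process in which miR-29 is best known through its collagen targets, 5 rose in the frontal lobe and 4 in the other region at 1 day, and 0 fell, where 48.1% and 48.5% of all miRNAs were called and 24.9% and 27.4% were called higher. miR-21-5p, described as promoting fibrosis, rose by log2 0.38 and 0.42 (edgeR adjusted p = 0.0208 and 0.00593). miR-30a-5p rose by 0.51 and 0.45, miR-30c-5p by 0.67 and 0.69, and miR-199a-3p by 0.62 and 0.63, while miR-133a-3p rose in the frontal lobe (0.46, adjusted p = 0.0291) and did not pass in the other region (0.53, adjusted p = 0.132). The list's median was 0.57 and 0.51, beside 0.01 and 0.06 over all miRNAs tested. Of 9 miRNAs named for this list, 8 were held and 6 were tested in each region, not all the same. miR-200b was tested in the frontal lobe alone (0.70) and miR-214-3p in the other region alone (0.50), and neither passed. With CsA, where 34.1% and 20.1% of all miRNAs were called, miR-30a-5p (0.38) and miR-30c-5p (0.55) passed in the frontal lobe and miR-30c-5p (0.48) in the other region.

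Other miRNAs reported to act on DNA methyltransferases had 2 of 4 called in the frontal lobe and 1 of 5 in the other region at 1 day, and cell death miRNAs 3 of 7 and 2 of 7. Beside the 48.1% and 48.5% called in either direction over all miRNAs, these counts are near the background or below it. By direction, 2 of 4 and 3 of 7 were called higher in the frontal lobe, above the 24.9% called higher over all miRNAs. In the other region 0 of 5 and 2 of 7 were called higher, beside 27.4% over all miRNAs. In the frontal lobe at 1 day miR-148b-3p (log2 0.89, edgeR adjusted p = 0.00801) and miR-143-3p (0.43, adjusted p = 0.0114) rose and 0 of 4 fell, whereas in the hippocampus and amygdala 0 of 5 rose and miR-101 fell by 0.54 (adjusted p = 0.00638). Of the cell death list, miR-15b (0.63 and 0.68) and miR-16 (0.27 and 0.37) rose in both regions at 1 day and miR-497 in the frontal lobe (0.26, adjusted p = 0.0466). miR-34a, a target of p53, stood at -0.02 and 0.00 without passing.

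Markers of single cell types were summed per library, as a check of the tissue. The calls given here are for 1 day against sham, where 24.9% of all frontal miRNAs and 27.4% of those of the other region were called higher. In either direction 48.1% and 48.5% were called. A call was therefore common, and counts of so few entries do not by themselves show a change in a cell type. The neuron list (miR-124a, miR-128, miR-138 and miR-218) had a median sum of 26970 CPM at 1 day and 25620 CPM in frontal sham libraries. In the other region the medians were 21770 CPM at 1 day and 22220 CPM in sham. In each region 1 of 5 tested entries was called higher and 1 lower. The endothelial entries (miR-126) had a median sum of 6786 CPM at 1 day (5511 to 8990) and 5642 CPM in sham (3252 to 7393) in the frontal lobe, with 1 of 2 called higher. In the other region they had 5242 CPM (4478 to 6753) and 4156 CPM (3236 to 5537), with 2 of 2 called higher. Oligodendrocyte markers (miR-219 and miR-338) had 0 of 2 called in each region, and microglia and leukocyte markers 0 of 6 and 2 of 6 called higher, with 2 of 8 entries at 0 in every library. Smooth muscle entries (miR-143 and miR-145; miR-143-3p is also in the DNA methyltransferase list) had a median sum of 4195 CPM at 1 day (3429 to 5241) and 3000 CPM in sham (1594 to 5033) in the frontal lobe, with 1 of 3 called higher there and 0 of 3 in the other region. Choroid plexus miR-204 was called higher in the frontal lobe, with a median of 143 CPM at 1 day (115 to 189) and 83.7 CPM in sham (31.9 to 170). In the other region it did not pass, with a median of 551 CPM at 1 day (184 to 1555) and 192 CPM in sham (92.5 to 1159). Red blood cell entries had 1 of 2 called higher and 1 lower in the frontal lobe and 1 of 3 higher in the other region, and skeletal muscle entries 1 higher and 1 lower of 3, and 0 higher and 1 lower of 3. The liver list, with miR-122, summed to at most 184 CPM in any library, and 1 of its 2 entries was at 0. The part of any of these cells in the difference of miR-29a-3p was not tested.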

How the data were processed

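The values are raw whole-number read counts of porcine mature miRNAs in each library, as the authors deposited them. Trimmomatic 0.39 and cutadapt 1.9.1 were used, per the submitters' processing notes; no source used here gives the aligner, counter, annotation, build or any use of molecular identifiers, so counts need not be independent molecules. Libraries were prepared with the QIAseq miRNA kit from fixed tissue, per the labels' protocols. Of 542 entries, 89 were 0 in every library; entries of a mature name were reduced to the one with the highest total, which removed 85 and left 457 names. Even the closest pair of libraries differed by more than counting error (chi-square 4799, 227 degrees of freedom), and every library was kept.

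Counts were tested with edgeR 4.0.16 in R 4.3.3 (glmQLFit, robust), with TMM scaling and filterByExpr (minimum count 10, minimum total 15). The 4 groups of a region shared a fit. Regions were compared over 52 animals with the animal as a block, since both libraries carry the same code; deviations from group means had a median correlation of 0.22 within an animal (38 of 52 over 0.1) and 0.0011 between animals. SE is the absolute log2 fold change divided by the square root of the F statistic. Ratios had 0.5 added to each count and were tested by permutation of libraries (100000 resamples, exact where a group had under 10; scipy 1.17.1); the smallest p that 100000 resamples can give is 1e-05. DESeq2 1.42.0 and limma 3.58.1 (voom) were alternatives, with other scaling, filters, covariates, subsets by code digits or letter and 1 library left out at a time. Scripts were tested on simulated data. The series design text states 50 subjects, whereas 53 codes were found; if a code is not 1 animal, p-values measure only the spread between these samples. Replicate numbers follow accession order. The named miRNAs are the 4 members, the 5 miRNAs nearest to the most abundant member, the 1 nearest to each other abundant member, and passing members of 4 lists. Members and lists were chosen with earlier results of these data known. No miRNA sequence was used here.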

Additional observations from a re-analysis of the deposited data

Results flagged for a closer look

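The difference between regions in the log2 ratio of miR-29c to miR-29b was 0.54 ± 0.18 in animals given CsA and 0.27 ± 0.24 in sham animals (SD, n = 9 and 18), that is 0.26 larger with CsA. It stands here because the same contrast differed between 2 groups by a test of the difference itself (exact permutation adjusted p = 0.0365 over 63 ratio tests). That test was among those added after the data had been seen. It passed in 16 of 27 cases with 1 animal left out, and it was not run within code digits or letter. For the level of miR-29c alone the corresponding difference was log2 0.46 (edgeR adjusted p = 0.0702). None of 28 sets of values held a library that stood apart by Dixon's criterion.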

How the results depend on the processing

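The rise of miR-29a-3p at 1 day passed under 12 of 13 alternatives in the frontal lobe (log2 0.29 to 0.48) and 11 of 13 in the hippocampus and amygdala (0.34 to 0.56 where it passed), and with any 1 library left out. Within codes 12 or 13 the number of members called at 1 day was 0 in both regions, and the log10 total as a covariate gave 0 in the hippocampus and amygdala. For CsA against sham in the frontal lobe the number was 0 with that covariate, within codes 11 and within codes 12 or 13. For 1 week against 1 day in the hippocampus and amygdala, 1 member (miR-29b) was called with RLE scaling, DESeq2, limma voom, no filter, let-7 left out or repeated entries kept. Of all miRNAs, 81, 100 and 89 of 299, 76 of 375, 77 of 284 and 116 of 361 were called, in that order. With 1 library left out, 0 to 1 members were called there, and 0 to 1 for CsA against sham. For the regions, 0 members were called in sham with RLE scaling, no filter, repeated entries kept or low totals left out. Of all miRNAs, 145 of 307, 141 of 379, 178 of 370 and 151 of 307 were called there, in that order. At 1 week 1 member (miR-29b) was called with limma voom, no filter or repeated entries kept. Of all miRNAs, 143 of 307, 130 of 379 and 166 of 370 were called. With CsA 2 members were called with limma voom or low totals left out, where 190 and 178 of 307 miRNAs were called. Without the replicate block the region comparison called 1, 1, 0 and 1 members at 1 day, with CsA, at 1 week and in sham. These numbers were the same with the block. Of 307 miRNAs, 107, 156, 99 and 115 were called without it, in that order. The log2 difference of miR-29c with CsA was 0.67 without the block. Among single values that passed, 0 changed sign. Among values that did not pass, the ratio of miR-29c to miR-29a-3p at 1 week against sham in the hippocampus and amygdala stood at 0.0036 with all animals and passed in the other direction, at -0.21, among animals with the code letter U. The causes were not tested.

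Subsets by code digits hold 4 to 9 animals a group and the subset with the letter U 6 to 10. A test of 5 against 5 cannot give an exact permutation p below 0.00794. Depth limits miR-29a-5p, and the counts of 24 and 61 for miR-29b and miR-29c in the smallest library. Leaving out 1 animal at a time was not run for the paired region fit.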
